A study of Danio rerio with 36 samples.

Results

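A set of 98 genes of the zebrafish eye was examined that were strongly lower in several dissected tissues of lrp2-/- mutants. A gene was counted in a tissue when its mean wild-type level was at least 1 TPM (a transcript level per length, scaled to the same total in each library) and its lowest wild-type level was more than 3 times its highest mutant level. Members were counted in at least 2 of 3 tissues, which were the retinal pigment epithelium (RPE), the retina, and the choroid with sclera, called sclera here. Of 31916 genes, 19175 had a mean wild-type level of at least 1 TPM in 2 or more of the tissues, and 100 of these (0.522%) met the rule. Genes of 7 names had been set aside, of which 2 met the rule, and 98 remained. The mirrored rule, with mutants higher, was met by 83 genes. Since the levels in the 3 tissues chose the members, they are given below as a description with no test. Whole eyes and larval eyes played no part in the choice and were tested.

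The gene lrp2 encodes megalin, a large receptor at the cell surface that takes up many ligands by endocytosis. The RPE supports the photoreceptors of the retina, the sclera is the outer coat of the eye, and the choroid is its vessel layer. Laboratory zebrafish lines are not fully inbred. Fish of different families can carry different alleles of a gene, and in some immune families such as the major histocompatibility complex (MHC) they can differ in which genes are present.

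RNA sequencing was done on 36 libraries in 12 groups of 3. At 1 month, fish with the genotype wild-type, titled ZDR, and fish with the genotype lrp2-/- gave whole eyes, RPE, retina and sclera. At 5 days, whole larval eyes came from Transgenic (hsp70l:eGFP-bmp4) and Transgenic (hsp70l:shha-eGFP) larvae, whose transgenes sit behind a heat-shock promoter, and from a wild-type control group for each line, titled NO bmp4 and NO shh. The labels used here do not give heat-shock times, the kind of lrp2 mutation, how many fish made a library or whether mutants and wild type were siblings. Effects of lrp2 and of other alleles that differ between the families therefore cannot be told apart. In bulk tissue, fewer cells of a type and less RNA per cell cannot be told apart either. The labels do not say that libraries of a group come from separate fish, so p-values measure the spread between libraries only.

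Total counts per library were 17543328 to 26708423. RPE markers summed to 13940 to 19180 TPM in wild-type RPE and 10580 to 14820 in mutant RPE, against 795 or less in every other 1-month library. The LRP2 transcript was present in both genotypes, with 7.94 to 11.1 TPM in wild-type whole eyes and 4.66 to 9.94 in mutant ones. BMP4 was at 119 to 147 TPM in bmp4 larvae and 3.46 to 3.84 in their controls. The shha gene, SHH (ENSDARG00000068567), was at 14.4 to 94.6 TPM in shh larvae and 4.19 to 11.3 in theirs. Wild-type retina replicate 12 stood apart, with 61906 TPM of crystallins against 394 and 462 in replicates 11 and 13. Among larval libraries, shh replicate 13 stood apart. It had the fewest genes detected (24192) and the highest larval crystallin sum (295244 TPM). Its LRP2 level was 4.06 TPM against 24.45 and 38.15 in shh replicates 11 and 12. Leaving out any 1 tissue library left 99 to 117 genes meeting the rule. The rule compares the lowest wild-type with the highest mutant library, so leaving a library out can only loosen the ratio. This range therefore does not measure how stable the set is.

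Of the 98 members, 19 were counted in all 3 tissues, 33 in retina and sclera, 30 in RPE and sclera, and 16 in RPE and retina. A symbol was known for 64 members and 34 had an identifier only. The share of expressed genes that the rule counted was 0.681% in RPE, 1.1% in retina and 1.04% in sclera, and 65, 68 and 82 members were counted there. Their median wild-type levels were low, at 4.33, 4.9 and 4.04 TPM. All 3 mutant libraries held 0 counts for 18 of the 65 in RPE, 17 of the 68 in retina and 15 of the 82 in sclera. Between 29 and 46 members were at 0 TPM in a mutant tissue library, and 0 to 7 in a wild-type one. The rule chose members as low in mutants, so an excess of zeros there follows from the choice.

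**Figure D1:**
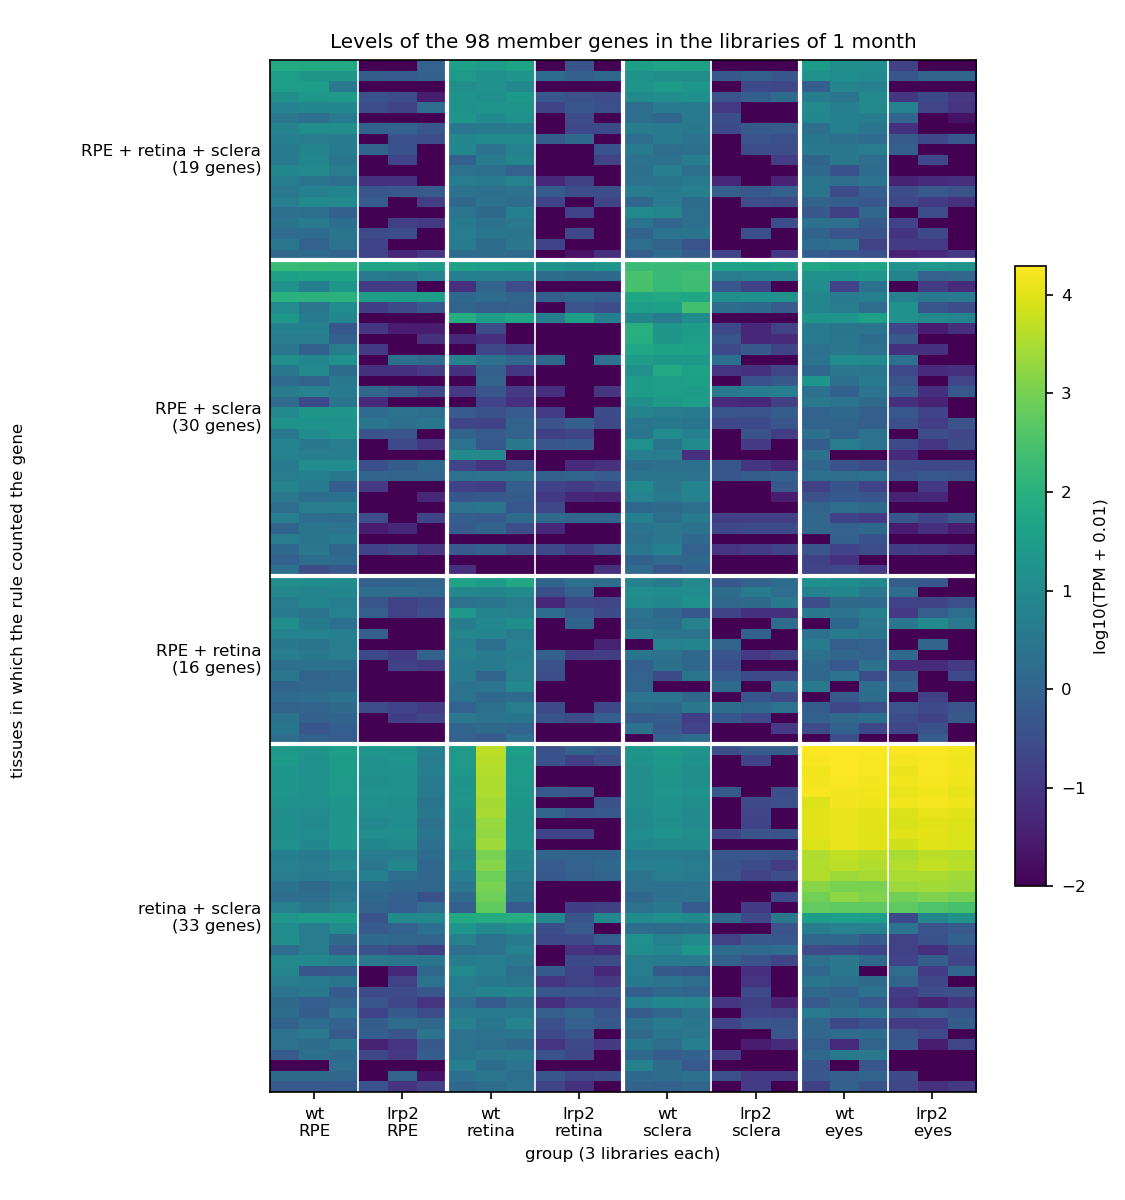
Level of each of the 98 member genes (rows) in the 24 libraries of 1 month (columns, 3 per group), as log10(TPM + 0.01) on the colour scale, with rows grouped by the tissues in which the rule counted the gene. The mutant columns of the counted tissues are darker by construction, and the rows at the top of the lowest block, mostly crystallins, are bright in whole eyes of both genotypes and in wild-type retina replicate 12.

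Near the limit of the rule, gstt2 lay just inside, with its second highest ratio of lowest wild-type to highest mutant level at 3.024, followed by si:dkey-169i5.4 at 3.041 and SPART (ENSDARG00000103457) at 3.127. Just outside were PER1 (ENSDARG00000056885), a circadian clock gene, at 3.000, si:dkeyp-86f5.1 at 2.945 and si:ch73-103b2.1 at 2.885.

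Crystallins, the structural proteins of the lens fibre cells, made up the largest family, with 13 members. These were crygm1, crygm2a, crygm2e, crygm2f, crygm3, crygm4, crygm6, crygm7, crygs3, crygs4, CRYBB2, CRYGN (ENSDARG00000102129) and CRYGS (ENSDARG00000042992). All 13 were counted in retina and sclera and none in RPE. In wild-type retina crygm1 had 25.0, 4130 and 25.3 TPM, where the second value is replicate 12, and in mutant retina it had 0.37, 0.15 and 0.30. Wild-type sclera had 15.98, 23.2 and 17.3 TPM of crygm1 and mutant sclera 0, 0.19 and 0. Levels of crygm1 in RPE overlapped between genotypes, with 27.5, 17.5 and 28.8 TPM in wild type against 15.1, 17.8 and 4.40 in mutants. Whole eyes, which contain the lens, held far more crygm1, with 17271, 19249 and 16900 TPM in wild type against 15254, 17384 and 14615 in mutants.

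The same order held for the other crystallin members with high mean wild-type levels, which rest largely on wild-type retina replicate 12. In wild-type retina crygm3 had 23.1, 3642 and 27.0 TPM and in wild-type sclera 12.7, 21.9 and 13.2, and it was listed at 0 in all 6 mutant libraries of these tissues. The levels of crygm2a were 17.6, 3304 and 24.6 TPM in wild-type retina and 13.1, 18.2 and 13.4 in wild-type sclera, and it too was listed at 0 in those mutant libraries. crygm6 likewise was at 0 in all 6, against 12.9, 2329 and 15.8 TPM in wild-type retina. In the same tissue crygm7 had 12.3, 2064 and 16.6 TPM against 0 in all mutants, crygm2e 14.85, 1923 and 16.8 against 0.17, 0.18 and 0, and crygm4 8.76, 1390 and 6.78 against 0.62, 0.96 and 1.28. CRYGN (ENSDARG00000102129) had 6.29, 1072 and 7.43 TPM against 1.12, 1.05 and 1.08. For all of these, the mutant libraries lay below every wild-type library. CRYBB2, a beta crystallin, had 13.9, 2941 and 16.8 TPM in wild-type retina and 1.01, 0.46 and 0.53 in mutant retina. The gene zgc:153846, which lies next to crygm1 in gene order but bears no crystallin symbol, had 23.8, 4771 and 31.3 TPM in wild-type retina and 0.35, 1.02 and 0.52 in mutant retina. Its whole-eye levels were 17881 to 19222 TPM in wild type and 15475 to 18620 in mutants. In 2 members without a symbol the pattern was the same, with 2803 and 3401 TPM in wild-type retina replicate 12 and 0.55 or less in all mutant retina and sclera libraries.

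The level of crystallin RNA as a whole did not follow that of the members. Over 55 crystallin genes the sum was 394, 61906 and 462 TPM in wild-type retina and 604, 655 and 693 in mutant retina, and 385, 505 and 420 in wild-type sclera against 573, 628 and 581 in mutant sclera. The 13 members held 36.3% to 42.1% of the crystallin sum in wild-type retina but 0.57% to 0.631% in mutant retina. In sclera they held 24.3% to 27.6% for wild-type fish and 0.251% to 0.32% for mutants. Their share in RPE was 34.2% to 37.0% for wild-type fish and 26.2% to 33.1% for mutants, and in whole eyes 37.1% to 41.9% and 36.7% to 41.6%. In the 12 larval libraries it was 0.267% to 0.36% of sums between 181975 and 295244 TPM. By the mirrored rule, 17 crystallin genes of the crygm2d series were higher in mutant sclera and 3 of them (crygm2d14, crygm2d16 and crygm2d18) also in mutant retina. For crygm2d18 the mean was 0.12 TPM in wild-type and 12.6 in mutant retina, 27.8 and 19.0 in whole eyes, and 3370 in larval controls of the bmp4 line. The rule chose the members as low in mutant retina and sclera, so their small share there follows from the choice. The share in larval eyes and whole eyes was not set by the rule, and the ranges of whole eyes overlapped between genotypes. Of the lens marker list, 5 of 6 names were found, and they summed to 49.0 to 7610 TPM in wild-type and 82.9 to 91.5 in mutant retina, and to 32.2 to 45.5 and 59.8 to 63.6 in sclera. The part of lens RNA in these dissected tissues in the members' fall was not tested. Reads of near-identical crygm copies may have been divided among them, so values of single crygm genes are uncertain. Without the crystallins, 85 members remained.

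**Figure D2:**
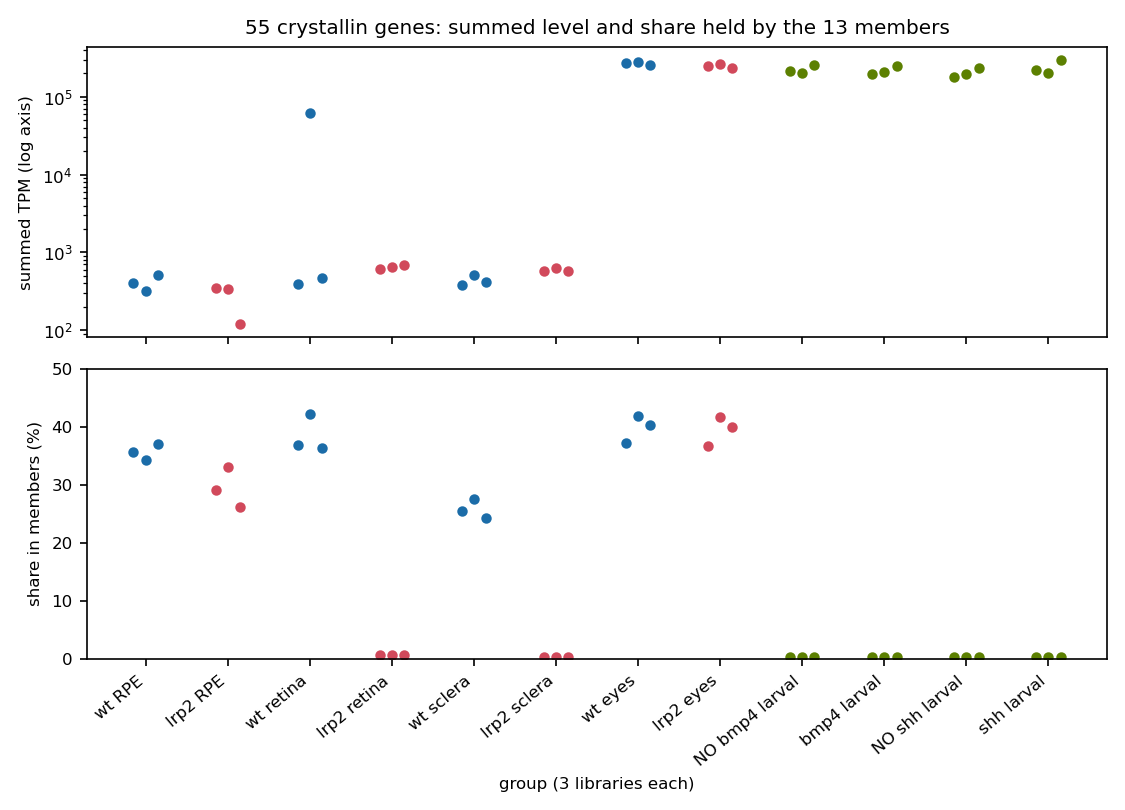
Summed TPM of 55 crystallin genes (upper panel, log axis) and the percent of that sum held by the 13 crystallin members (lower panel), one point per library in 12 groups of 3. The share is between 24.3% and 42.1% in wild-type tissues. It is under 1% in mutant retina and sclera, where the rule chose the members as low, and in all larval eyes. The summed level in mutant retina and sclera exceeds that of wild-type libraries of the same tissues other than retina replicate 12.

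Of the 19 genes counted in all 3 tissues, 11 had a symbol. The enzyme gene faah, whose product breaks down fatty acid amides such as the endocannabinoid anandamide, had 4.98, 2.77 and 1.87 TPM in wild-type RPE and 0.07, 0.07 and 0 in mutant RPE. Wild-type retina had 4.34, 3.67 and 6.28 TPM of faah and mutant retina 0.04, 0.15 and 0, and sclera had 2.45, 2.72 and 3.79 against 0.04, 0 and 0.03. All 9 mutant tissue libraries were thus at 0.15 TPM or less. FAAH2 (ENSDARG00000008457), a related amidase gene, had means of 33.6 TPM in wild-type and 30.5 in mutant RPE, 9.12 and 13.2 in retina, and 6.47 and 10.3 in sclera. In retina and sclera its mutant libraries lay above all wild-type ones. A second gene of that name, FAAH2 (ENSDARG00000054786), was at 0.61 TPM or less. It had 0.08 to 0.61 TPM in wild-type and 0 to 0.06 in mutant sclera, and 0.05 to 0.18 against 0 in RPE. In retina its groups overlapped.

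The gene si:ch211-181d7.2 had 13.7, 21.7 and 24.01 TPM in wild-type RPE, 16.6, 13.5 and 22.5 in retina and 10.2, 12.3 and 14.7 in sclera. The mutant tissues had 0.02 to 1.51 TPM. For si:dkey-103k4.3 the wild-type levels were 32.9, 32.6 and 3.59 TPM in RPE, 12.9, 14.9 and 8.52 in retina, and 18.1, 26.6 and 20.6 in sclera. It was listed at 0 in 7 of the 9 mutant libraries and at 0.23 and 0.22 TPM in the other 2. Wild-type RPE replicate 13 was low among the wild-type libraries of this gene.

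The next genes differed in where their levels were highest. si:ch211-214b16.2 had 6.60, 12.6 and 12.9 TPM in wild-type RPE against 0.89, 0.97 and 0.45 in mutant RPE. si:dkey-222p3.1 was highest in retina, with 16.3, 18.5 and 18.2 TPM in wild type against 0.19, 0.48 and 0.33 in mutants. si:ch211-199m9.3 was also highest in retina, with 8.09, 10.5 and 9.47 TPM against 0.71, 1.45 and 0. Both genes were below 2 TPM in every mutant tissue library.

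For si:dkey-4i23.5, retina had 8.57, 2.43 and 5.94 TPM in wild type against 0, 0 and 0.37 in mutants. For si:dkey-25o1.7, RPE had 4.98, 10.2 and 9.04 TPM against 0.65, 0 and 0.14. For si:dkeyp-86b9.5, RPE had 4.19, 7.68 and 2.89 TPM against 0, 0.17 and 0. These genes are not given roles by the files, and in each the mutant libraries lay under all wild-type libraries of the tissue.

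For si:ch211-212i14.4 sclera had 10.2, 7.41 and 1.91 TPM in wild type, and all 3 mutant sclera libraries were at 0. For si:ch211-213a13.11 sclera had 4.39, 4.10 and 5.13 TPM in wild type against 0.81, 0.52 and 0.83 in mutants. Among the genes counted in all 3 tissues that have no symbol was ENSDARG00000104036. It had 72.7, 66.1 and 64.8 TPM in wild-type RPE, 36.2, 30.9 and 44.9 in retina, and 32.3, 43.3 and 40.5 in sclera. Mutant libraries held 0, 0 and 0.95 TPM in RPE, 0, 0.43 and 0 in retina and 0 in all of sclera. Another was ENSDARG00000093647, with 32.2, 21.9 and 21.2 TPM in wild-type and 0.71, 0.68 and 0.82 in mutant RPE.

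Several members counted in RPE and sclera had their highest levels in sclera. The gene gfus.3, one of 3 genes for GDP-L-fucose synthase, which makes the donor of fucose for glycans, had 296, 164 and 216 TPM in wild-type sclera and 0.51, 0.19 and 0 in mutant sclera. Its RPE levels were 15.3, 5.18 and 21.2 TPM against 0.12, 0.12 and 0. The other copies, GFUS (ENSDARG00000039666) and GFUS (ENSDARG00000039669), had means of 9.30 and 48.1 TPM in wild-type sclera and 7.05 and 45.8 in mutant sclera, so the gap of gfus.3 was not seen in them. In larval eyes gfus.3 was at 0.22 TPM or less in all 12 libraries.

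The gene serpinb14, of the clade B serine protease inhibitors, had 314, 170 and 234 TPM in wild-type sclera and 4.37, 5.60 and 5.75 in mutant sclera, and 36.3, 41.3 and 45.9 TPM against 3.99, 3.34 and 5.57 in RPE. Its relative SERPINB8 went the other way in sclera, with means of 55.2 TPM in wild type and 123 in mutants. Wild-type sclera had 34.1, 36.4 and 244 TPM of pvalb3, a parvalbumin that buffers calcium, and mutant sclera 1.64, 1.45 and 0.64. Among its relatives, pvalb2 had a mean of 162 TPM (21.22 to 437.79) in wild-type and 22.1 (18.06 to 26.80) in mutant sclera, and pvalb5 had 2.23 and 0.367, with overlap in both. pvalb4 had means of 363 and 454 TPM and pvalb1 166 and 103. pvalb7 was lower in mutants without overlap but outside the rule. It had 21.54 to 42.7 TPM in wild-type and 16.27 to 19.74 in mutant sclera, and 4.58 to 5.87 against 1.43 to 1.97 in RPE.

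The gene mucms1, named as a mucin, had 89.3, 22.1 and 29.8 TPM in wild-type sclera and 0.24, 0.04 and 0.16 in mutants. si:ch211-239f4.6 was close to it library by library, with 81.6, 21.8 and 31.5 TPM in wild type against 0.43, 0.04 and 0.05 in mutants. jac1 had 28.2, 34.7 and 36.0 TPM against 0, 0.37 and 0.58, and loc101882496 had 13.1, 25.8 and 32.2 against 0.05, 0.04 and 0.15. The mucin gene muc5.1 had means of 109 TPM in wild-type and 103 in mutant sclera. All 7 listed markers of corneal and surface epithelium were found. They summed to 73170 to 89490 TPM in wild-type and 68080 to 76460 in mutant sclera, and to 6453 to 7108 in wild-type and 424.1 to 18900 in mutant RPE, so 1 mutant RPE library lay above and others below the wild-type range. Their part in the sclera-high members was not tested.

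The MHC supplied 3 members, whose products present peptides to T cells. The class II gene mhc2dgb had 14.8, 64.4 and 39.4 TPM in wild-type sclera and 0.08, 0.07 and 0.20 in mutant sclera. The class I gene mhc1zfa had 29.6, 31.5 and 28.9 TPM in wild-type sclera against 3.43, 4.73 and 4.89 in mutants. Its near neighbour mhc1zka, 3 genes away in gene order, had 3.59, 10.6 and 17.2 TPM in wild-type RPE against 0.46, 0.46 and 0. Of 34 MHC genes, 4 met the rule for lower levels in RPE and 6 in sclera, these 3 members included. The class I gene mhc1zea had 27.45 to 112 TPM in wild-type sclera and 10.4 to 11.2 in mutants, and mhc1zca had 2.52 to 15.95 against 1.33 to 1.99, both without overlap but outside the rule. For comparison, the class II genes mhc2daa and mhc2dab had means of 362 and 322 TPM in wild-type and 350 and 293 in mutant sclera, and the class I gene mhc1zba had 613 and 823. Other MHC genes were higher in mutant sclera without overlap. Among them were mhc1zaa, with 15.1 to 28.87 TPM in wild type and 41.84 to 50.41 in mutants, and mhc2bl, with 17.54 to 23.96 against 29.42 to 49.6. In RPE, mhc1zaa had 17.09 to 23.79 TPM in wild type against 59.05 to 81.62 in mutants. Of the macrophage list 5 of 6 names were found and summed to 47.71 to 69.49 TPM in wild-type and 29.71 to 53.87 in mutant sclera. All 5 T and NK cell markers were found, with sums of 2.31 to 4.24 against 0.29 to 2.37 TPM. The part of these cells in the MHC values was not tested.

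Among the remaining members were enzymes, transporters and a receptor. si:dkey-100n23.4, which bears no named role in the files, had 187, 160 and 147 TPM in wild-type RPE and 42.3, 42.1 and 28.3 in mutant RPE, and 199, 179 and 164 against 39.8, 34.8 and 44.3 in sclera. TGM2 (ENSDARG00000074094), a transglutaminase that crosslinks proteins, had 107, 108 and 113 TPM in wild-type RPE and 33.5, 27.8 and 31.2 in mutant RPE, so that the libraries of each genotype were close together. Its relative tgm1l1 was also lower without overlap, with 30.19 to 48.54 TPM in wild-type and 16.32 to 22.6 in mutant RPE. Another, tgm5l, met the rule in sclera, with means of 39.5 and 3.1 TPM. In sclera tgm8 (means 68.3 and 52.2 TPM) and TGM1 (ENSDARG00000101407) (15.8 and 29) overlapped between genotypes. gstt2, a theta class glutathione transferase, had 4.35, 5.17 and 3.47 TPM in wild-type RPE against 1.13, 1.01 and 1.08, while its relatives gstt1b and gstt1a had means of 85.9 and 51.9 TPM in wild type and 69.5 and 44.2 in mutants. MCHR1 (ENSDARG00000022525), a receptor of melanin-concentrating hormone, had 4.62, 6.45 and 7.91 TPM in wild-type and 0.49, 0.50 and 0.41 in mutant retina.

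slc37a4bl, a relative of the glucose-6-phosphate transporter gene SLC37A4, had 19.9, 9 and 13.8 TPM in wild-type and 0.31, 0.65 and 0 in mutant retina. The copies slc37a4b and SLC37A4 had means of 47.9 and 3.74 TPM in wild-type and 44.7 and 1.72 in mutant retina. SLC37A4 was lower there without overlap but outside the rule, with 2.57 to 4.33 TPM against 1.42 to 2.12, and slc37a4b overlapped. SLC5A2, a sodium and glucose cotransporter best known from kidney, had 2.99, 5.31 and 0.92 TPM in wild-type sclera against 0.08, 0.12 and 0.18. ANKRD2, an ankyrin repeat protein of striated muscle, had 1.13, 1.48 and 1.15 TPM in wild-type retina and was at 0 in mutant retina and RPE. Red blood cell markers, of which 4 of 6 names were found, summed to 15210 to 19060 TPM in wild-type RPE and 2510 to 4498 in mutant RPE. Their part in the RPE levels was not tested.

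SPART (ENSDARG00000103457), which encodes spartin, differed between mutant libraries. Retina had 72.6, 75.3 and 79.3 TPM in wild type against 7.64, 0.42 and 8.92 in mutants, and sclera had 10.8, 14.4 and 9.60 against 1.36, 0.24 and 3.07. Mutant replicate 12 was the lowest in both tissues, and in RPE as well. There mutant replicate 12 had 0.40 TPM and the other 2 mutants 9.50 and 9.14, against 19.0, 29.6 and 29.8 in wild type. A second SPART gene (ENSDARG00000068782) had 0.1 to 11.65 TPM in wild-type retina, a mean of 3.96, and 0.08 to 0.23 in mutant retina, so the groups overlapped. In sclera its means were 8.69 TPM in wild type and 14.3 in mutants. In zgc:194221, counted in RPE and sclera, a wild-type library was the low one. It had 10.1, 8.98 and 0 TPM in wild-type retina and 4.96, 4.64 and 0.06 in wild-type sclera, where replicate 13 is last, and 0 in all 9 mutant tissue libraries. The same gene had 2.24, 0 and 0 TPM in wild-type whole eyes.

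Whole eyes gave a comparison that the rule had not used. Of the 98 members, 92 had a lower and 6 a higher mean TPM in mutant whole eyes, where 38.6% of all 28056 genes with a level above 0 were lower. After the filter on low counts 66 members were tested. With edgeR's quasi-likelihood test adjusted over 21411 genes, 18 of the 66 fell (12 with a symbol) and 0 rose, where 0.56% of all genes tested fell and 0.374% rose. At an unadjusted p under 0.05, 41 members were lower (7.05% of all genes) and 1 was higher. The median log2 change of the 66 was −2.19, and 0.01 over all genes. It was −2.58 for the 53 tested members without a crystallin symbol, which held all 18 calls and include zgc:153846 and 2 genes without a symbol that share the crystallins' pattern, and the median of −2.19 was the same with the 3 members at 0 mutant counts set to their bound. Of the 66, 43 were under the filter's count in at least 1 mutant library and 23 were above it in all. A member that passed through wild-type counts alone had to differ, so these counts are a description. Among the 23 were 13 crystallins and 2 of the calls. Summed markers in whole eyes also separated the genotypes for some cell types. Red blood cell markers were at 2134 to 3210 TPM in wild type and 828.5 to 1815 in mutants. Mutants were higher for RPE (333.7 to 586.1 against 699.8 to 795), macrophages (17.78 to 18.38 against 23.67 to 40.47), T and NK cells (0.48 to 0.97 against 1.00 to 4.09), vessels (44.91 to 51.82 against 55.69 to 60.57) and iridophores (52.16 to 62.31 against 67.06 to 82.80). Their part in the members' changes was not tested.

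The count of 18 changed with which library was dropped. Dropping mutant replicate 3 left 0 calls, mutant replicate 2 left 6, and mutant replicate 1 gave 26, where 0, 22 and 232 of all genes were lower. Among wild-type libraries, dropping replicate 2 left 4 calls, replicate 3 left 11 and replicate 1 left 14, where 18, 47 and 71 of all genes were lower. The members' counts thus moved with those of all genes, which were 120 with every library. By DESeq2, 31 members and 560 of all genes were lower.

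The genes that fell came from each pattern of tissues, with 5 counted in all 3 tissues, 9 in RPE and sclera, 2 in RPE and retina and 2 in retina and sclera. Only 11 of the 19 members counted in all 3 tissues were tested, so these calls are not shares of the full patterns. faah had 2.67, 1.76 and 2.54 TPM in wild-type and 0.03, 0.05 and 0.06 in mutant whole eyes. It fell from 3.46 ± 0.876 to 0.0694 ± 0.0276 CPM, library-scaled counts (SD, n = 3, log2 −5.56, SE 0.45, edgeR adjusted p = 0.00827). Its relative FAAH2 (ENSDARG00000008457) was not called (log2 0.37, edgeR adjusted p = 0.274). That gene had 5.89 to 7.07 TPM in wild type and 8.46 to 9.49 in mutants. FAAH2 (ENSDARG00000054786) was not tested, with 0.1 to 0.4 TPM against 0.03 to 0.07. si:ch211-181d7.2 had 4.49, 2.66 and 10.4 TPM against 0.09, 0.25 and 0.10 (log2 −6.13, SE 0.75, edgeR adjusted p = 0.0278). For si:ch211-214b16.2 the wild-type libraries held 29, 78 and 38 counts and the mutant ones 1, 0 and 0. That is a ratio of 147 with a 95% exact interval of 26.0 to 5860 that covers counting error only.

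Of the 18 called members, 6 had no symbol. Those shown here were picked from among the calls, so their fall is a description. ENSDARG00000104036 held 208, 114 and 84 counts in wild-type whole eyes against 1, 0 and 0 in mutant ones, a ratio of 413 with a 95% exact interval of 73.6 to 16300. ENSDARG00000093647 fell from 8.66 ± 2.41 to 0.627 ± 0.292 CPM (log2 −3.79, SE 0.39, edgeR adjusted p = 0.012).

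Of the members high in sclera, mucms1 fell in whole eyes from 8.01 ± 1.84 to 0.219 ± 0.236 CPM (log2 −5.11, SE 0.56, edgeR adjusted p = 0.0171). loc101882496 held 106, 87 and 46 counts in wild type against 2, 1 and 0 in mutants, a ratio of 80.9 (95% exact interval 27.4 to 395). mhc2dgb fell from 2.05 ± 0.856 to 0.091 ± 0.0836 CPM (log2 −4.37, edgeR adjusted p = 0.0323). Other members with high scleral levels were not called. serpinb14 had 15.9, 17.1 and 21.3 TPM in wild type against 6.75, 0.93 and 1.21 in mutants (log2 −2.61, SE 0.65, edgeR adjusted p = 0.135), with mutant replicate 1 above the other 2. jac1 had 20.9, 1.83 and 4.05 TPM against 0.39, 0 and 0.20 (edgeR adjusted p = 0.105).

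pvalb3 had 7.62, 4.52 and 1.82 TPM against 15.99, 0.45 and 0.31 (log2 0.11, SE 1.25, edgeR adjusted p = 0.983), so that mutant replicate 1 lay above all wild-type libraries. Muscle markers, 5 of 6 names found, summed to 859.9 TPM in the highest mutant whole-eye library and 55.95 in the lowest, against 71.15 to 220.4 in wild type. In that library they stood highest too, and their part was not tested.

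The glutathione transferase gene gstt2 fell from 4.69 ± 0.405 to 0.978 ± 0.269 CPM (log2 −2.26, SE 0.27, edgeR adjusted p = 0.0186), and its relatives gstt1b (log2 −0.02, adjusted p = 0.97) and gstt1a (0.45, adjusted p = 0.459) were not called. si:dkey-100n23.4 had 48.9, 40.7 and 41.7 TPM in wild type against 14.9, 19.9 and 16.5 in mutants and fell by 1.61 on the log2 scale (edgeR adjusted p = 0.0178). si:ch211-160m12.2, highest in wild-type retina at 41.7, 30.4 and 59.8 TPM, fell from 2.43 ± 0.74 to 0.0806 ± 0.0703 CPM in whole eyes (log2 −4.82, edgeR adjusted p = 0.0278). si:ch211-233m11.1 fell from 3.39 ± 0.356 to 0.0966 ± 0.0677 CPM (log2 −5.08, edgeR adjusted p = 0.00827).

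Both si:dkey-103d23.3, with 22, 69 and 53 counts in wild-type whole eyes, and si:dkey-208m12.2, with 13, 25 and 19, had 0 counts in all 3 mutant libraries. With the mutant group set to a floor of 3 counts in all, they were at least 48.8-fold and 19.3-fold lower, and both were called (edgeR adjusted p = 0.0398 and 0.0469). For each of the 12 called members with a symbol, the highest mutant library lay below the lowest wild-type library. These genes were picked by their call, so this is a description. Of the calls, only gstt2 and si:dkey-100n23.4 reached the filter's count in all 3 mutant libraries, and the others passed it through wild-type counts.

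**Figure D3:**
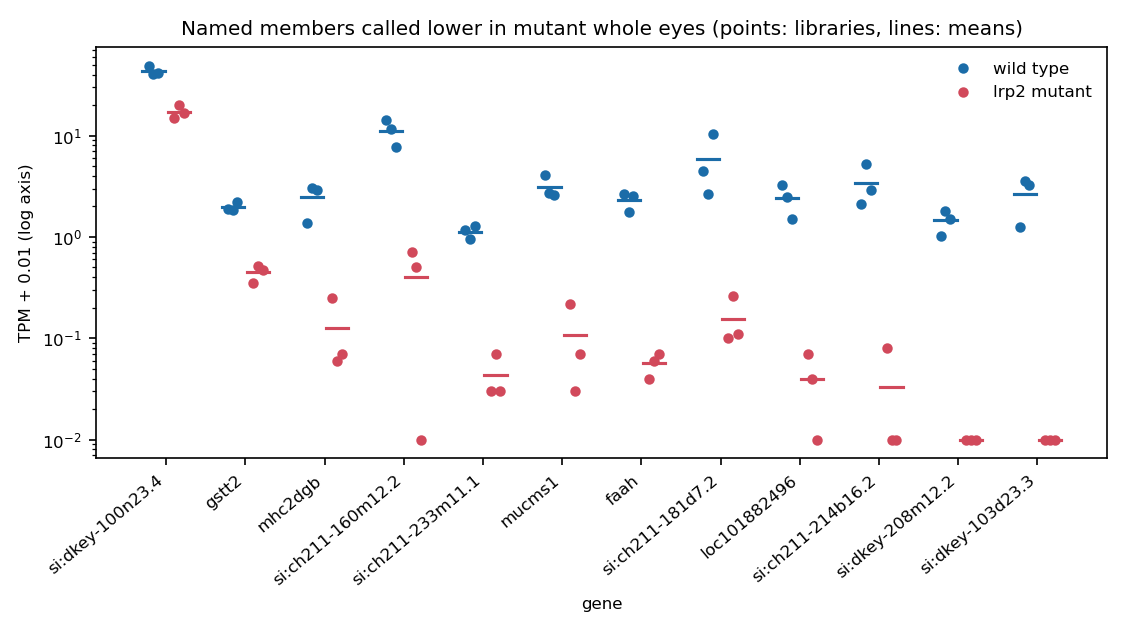
TPM + 0.01 (log axis) in whole eyes for the 12 members with a symbol that were called lower, with 3 wild-type and 3 mutant libraries as points and group means as lines. No gene has an overlap between the genotypes, and the 2 genes at the right have all 3 mutant libraries at 0 TPM. The genes were picked by their call, so the lack of overlap is a description.

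The crystallin members had no call in whole eyes, with 0 of 13 lower and 0 higher. Their median log2 change was −0.22. At an unadjusted p under 0.05, 1 was lower and 1 higher, where 7.05% of all genes tested were lower and 7.08% higher. Of all genes tested, 0.56% were called lower and 0.374% higher. With so small shares, the counts among 13 crystallins cannot be told from those of genes in general. CRYGS (ENSDARG00000042992) had 595, 558 and 543 TPM in wild type against 537, 374 and 293 in mutants (log2 −0.59, SE 0.22, edgeR adjusted p = 0.288). crygs3 had 1501, 1065 and 1060 TPM in wild type against 2348, 2709 and 2398 in mutants, higher in all 3 mutants (log2 0.96, SE 0.18, edgeR adjusted p = 0.0628). crygm1 (log2 −0.27), crygm3 (−0.28) and crygm4 (0.12) were not called (edgeR adjusted p of 0.58, 0.638 and 0.875). Of the 30 listed gamma M crystallins, 2 fell in whole eyes by the same test, crygm2d5 and crygm2d20, and neither is a member. The list's median log2 change was −0.44.

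**Figure D4:**
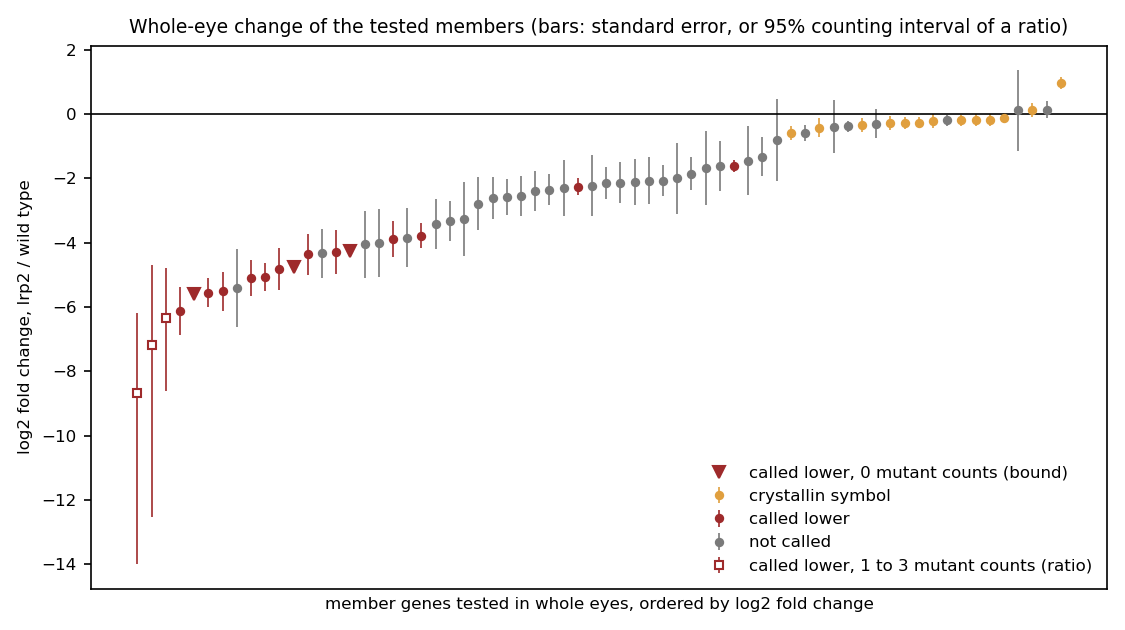
Whole-eye log2 fold change, mutant over wild type, of the 66 tested members in order, with bars for the standard error. Circles are fitted values, triangles are bounds for 3 genes with 0 mutant counts, and open squares are count ratios with 95% counting intervals for 3 genes with 1 to 3 mutant counts. The crystallins lie between −0.59 and 0.96 and the called genes at or below −1.61.

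SPART (ENSDARG00000103457) in whole eyes again had 1 mutant library far below the others, with 0.25, 7.54 and 15.9 TPM against 33.3, 36.7 and 31.8 in wild type (log2 −2.23, SE 0.95, edgeR adjusted p = 0.361). TGM2 (ENSDARG00000074094) had 7.42, 4.26 and 5.13 TPM against 5.37, 3.48 and 3.69, and the groups overlapped. Counted on TPM alone, the 3-fold rule held in whole eyes for 25 of the 73 members with a mean wild-type level of at least 1 TPM there (34.2%, against 0.41% of all such genes). Groups did not overlap, with mutants lower, for 47 of the 73 (64.4%, against 7.27%).

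Gene families around the members were followed by lists. Of 34 MHC genes, 24 were tested in whole eyes and 2 fell, mhc2dgb among them, with a list median of 0.14. Of 26 GDP-fucose enzyme genes, 17 were tested and 0 were called, with a list median of 0.02. The member among the 26, gfus.3, was not tested. It had 312, 5 and 53 counts in wild-type whole eyes and 0, 3 and 1 in mutant ones. The other 13 lists, which covered immune, transport and cilia genes among others, held 0 members. Of the members, 41 could be placed in the gene order of a newer assembly, and none lay within 100 genes of lrp2a. On the chromosome of lrp2a were 12 of the 41, of which 9 are crystallins, and the nearest was 404 genes away. Of the 30 placed members without a crystallin symbol, 3 (10%) were on that chromosome, against 3.79% of 13083 placed genes of like level. These 3 include zgc:153846, which lies next to crygm1 in a crystallin cluster, so the percentage does not leave that cluster out. The part of linkage to lrp2 in these levels was not tested. Outside the crystallin clusters the members within 10 genes of each other were mhc1zfa with mhc1zka and SLC5A2 with si:ch211-11n16.3. Of 57 flanking genes of placed members without a crystallin symbol, 3 (5.26%) were lower by the rule in at least 1 tissue, and 0 were higher. Of all genes with a mean wild-type level of at least 1 TPM in a tissue, 1.83% were lower. The 3 include crygmxl1, a crystallin symbol near zgc:153846, and zgc:110249 entered the 57 for both mhc1zfa and mhc1zka. Members and the names set aside were not taken as flanking genes, so a flanking gene could be lower by the rule in 1 tissue only. The 1.83% includes members. The percentages are thus of unlike sets, and so few genes do not separate them.

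The larval eyes addressed whether the members respond to the bmp4 or shha transgenes. With edgeR and no pairing of libraries, 0 of 72 tested members were called in bmp4 larvae, and 0 by DESeq2. By edgeR 0.0238% of all genes were called lower and 0.0808% higher. At an unadjusted p under 0.05, 1 was lower, zgc:101699 (log2 −1.75, SE 0.68), and 1 higher, MCHR1 (ENSDARG00000022525), with 4.04, 12.3 and 5.59 TPM in controls and 11.1, 20.9 and 12.0 in bmp4 larvae. Of all genes, 1.82% were lower and 1.7% higher at that threshold, so the members' counts were near the background of this unpaired fit. The labels give no pairing, but same-numbered larval libraries varied together and were taken as pairs. With this replicate block edgeR called 4 members. MCHR1 (ENSDARG00000022525) rose by 0.97 on the log2 scale (SE 0.14, adjusted p = 0.0034). zgc:153846 (log2 −0.49, adjusted p = 0.00213), crygm2f (−0.30, adjusted p = 0.0399) and 1 gene without a symbol (−0.32, adjusted p = 0.0175) fell. In that fit 264 genes fell and 310 rose of 21632 tested, against 5 and 17 of 21035 without the block. Whether the 4 members exceed that share was not tested.

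In shh larvae edgeR called 0 of 70 tested members, and 0 of all 20812 genes, with or without the block. At an unadjusted p under 0.05, 1 member was lower and 2 were higher, where 0.163% of all genes were lower and 0.38% higher, and DESeq2 called 0 members. The lower one was si:dkey-103d23.3, with 2.11, 1.81 and 1.99 TPM in controls and 0.67, 0.65 and 0.18 in shh larvae (log2 −2.14, SE 0.41, edgeR adjusted p = 0.9). The groups of this gene did not overlap. One of the higher members, without a symbol, had 20, 15 and 17 counts in controls and 122, 38 and 37 in shh larvae (log2 2.24, SE 0.53). The other, CRYGN (ENSDARG00000102129), had 3799, 3730 and 2546 counts against 3863, 3856 and 5379 (log2 0.82, SE 0.33). Counts of both did not overlap either, and neither was called (edgeR adjusted p = 0.9).

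The larval controls were wild-type fish of 2 lines and were used to see how much the members vary without an lrp2 mutation. The mean level was at least 1 TPM in both control groups for 56 of the 98 members, and all 6 control libraries were at 0.1 TPM or less for 2. With edgeR, 0 of 74 tested members differed between NO shh and NO bmp4 controls, where 0.00947% of all genes were called lower and as many higher. At an unadjusted p under 0.05, 9 members were lower and 6 higher in NO shh, where 4.56% of all genes were lower and 4.36% higher. The line and the separately deposited table cannot be told apart. si:ch211-233m11.1 had 0.53, 0.87 and 0.72 TPM in NO bmp4 and 0, 0.02 and 0.04 in NO shh controls (log2 −5.15, SE 0.70, edgeR adjusted p = 0.0986). DESeq2 called 2 members, this gene among them (log2 −5.27, adjusted p = 1.6e-06), and over all genes 117 lower and 102 higher. Its levels in NO shh controls were as low as those in mutant whole eyes, which were 0.02, 0.06 and 0.02 TPM.

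Within control groups the members varied more between libraries than genes did in general. The highest library exceeded the lowest by more than 3 times for 29 of 66 members in NO bmp4 controls (43.9%, against 4.91% of all genes with a mean of at least 1 TPM). In NO shh controls this held for 15 of 60 (25%, against 5.19%), and in wild-type whole eyes of 1 month for 19 of 73 (26%, against 4.42%). Members are of low level, so genes with a mean of 1 to 10 TPM were compared as well. Of these, 24 of 47 members in NO bmp4 (51.1%, against 9.37%), 13 of 43 in NO shh (30.2%, against 10.3%) and 19 of 50 in wild-type whole eyes (38%, against 7.66%) varied so. Genes of like TPM can differ in read counts, and the part of counting noise in these shares was not tested. Between the control groups, 0 of 70 members met the 3-fold rule, against 0.267% of all genes. With so small a share, a count of 0 among 70 cannot be told from that of genes in general.

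Some members were near 0 in single wild-type libraries. si:ch211-181d7.2 had 11.1, 4.44 and 0.20 TPM in NO bmp4 and 20.6, 12.1 and 0.04 in NO shh controls, against 0.09 to 0.25 in mutant whole eyes. si:dkey-208m12.2 had 0, 1.15 and 3.19 TPM in NO bmp4 and 5.23, 6.08 and 0 in NO shh controls. si:ch211-214b16.2 had 2.46, 0.99 and 0 TPM in NO bmp4 and 6.60, 5.81 and 3.32 in NO shh controls. For each of these genes a wild-type library was as low as mutant whole eyes while another of the same group was at more than 2 TPM.

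zgc:194221 had 0, 3.29 and 0 TPM in NO bmp4 controls and 0 in all NO shh controls.

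Low and high libraries often carried over to the transgenic library of the same number, among varying genes in general as well as among members. si:ch211-181d7.2 had 14.5, 1.86 and 0.11 TPM in bmp4 larvae and 14.6, 10.7 and 0.01 in shh larvae, with replicate 13 lowest in all 4 larval groups. zgc:194221 had 0, 2.91 and 0.10 TPM in bmp4 larvae, where replicate 12 was the high one, as in their controls. Of the 29 members that varied in NO bmp4 controls, the lowest library had the same number in bmp4 larvae for 23 (79.3%, against 62.2% of 940 such genes). In the shh set this held for 10 of 15 (66.7%, against 56.8% of 998), which is near the share of all such genes. Other members were steady across the controls. gstt2 had 2.73 to 3.51 TPM in all 6 control libraries, SPART (ENSDARG00000103457) 24.5 to 31.8 and si:dkey-100n23.4 105 to 175.

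**Figure D5:**
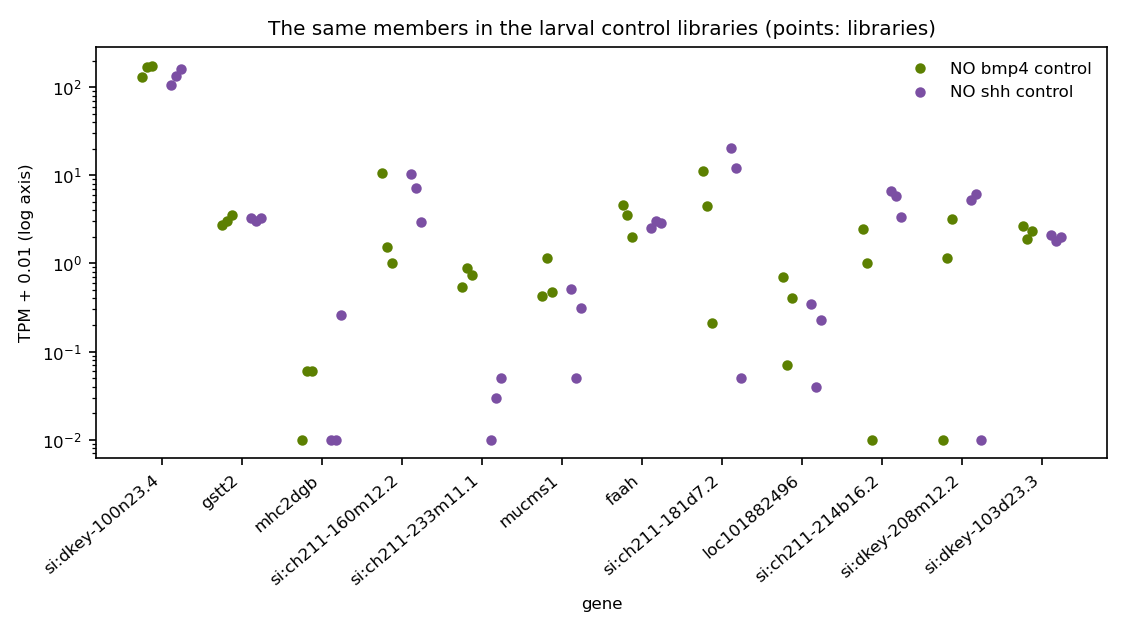
TPM + 0.01 (log axis) of the same 12 members in the 3 NO bmp4 and 3 NO shh larval control libraries, each point a library. gstt2, faah, si:dkey-103d23.3 and si:dkey-100n23.4 are close together, whereas si:ch211-181d7.2 and si:dkey-208m12.2 have libraries near 0 beside libraries above 3 TPM in both groups.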

How the data were processed

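Gene levels were measured by RNA sequencing of zebrafish eyes. The authors deposited expected counts, TPM and, for the 1-month set, FPKM for 31916 Ensembl genes per library. Processing used Bowtie2, HISAT and build GRCz10, per the submitters' processing notes. Their versions, the counter, the annotation and the handling of strand were not stated in the labels, so reads of near-identical copies, overlapping genes and antisense partners cannot be told apart. Values per transcript were not used.

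Members were chosen on TPM by the rule in the report. The members, gene lists and tests were chosen with earlier results of these data known. Deposited expected counts were rounded and entered edgeR 4.0.16 under R 4.3.3 (filterByExpr with a minimum count of 10, TMM scaling, robust quasi-likelihood fit, two-sided), each comparison on its 6 libraries. P-values were Benjamini-Hochberg adjusted over all genes tested, with a call at an adjusted p under 0.05. The scripts were tested on simulated data. Alternatives were DESeq2 1.42.0, limma 3.58.1 on log2(TPM + 0.5), another scaling, no filter, a replicate block, a fit of all 24 libraries of 1 month and leaving out each library. FPKM and TMM-scaled CPM served as alternatives of the rule.

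Deviations from group means of same-numbered larval libraries correlated at 0.447, 0.474 and 0.585 in the bmp4 set and 0.252, 0.376 and 0.247 in the shh set, so these numbers were taken as pairs. This pairing comes from the data, not the labels.

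Named with values were all members with a symbol that were counted in 3 tissues, those with a symbol among the 15 of highest wild-type level counted in 2, all called members with a symbol, and the genes nearest the limit of the rule. Members without a symbol were given as counts, apart from a pair printed by identifier. Other members were named after their values were seen, for the group or pattern they show. The mean wild-type levels that ranked the crystallins rest largely on wild-type retina replicate 12. Symbols came from a table that named 26108 of the 31916 identifiers, and capitals mark human-style symbols. Relatives were found by symbol. Gene order came from assembly GRCz12tu, and no coordinates are given because the builds differ.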

Additional observations from a re-analysis of the deposited data

Results flagged for a closer look

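crygs3, a crystallin that was lower in mutant retina and sclera, was higher in every mutant whole-eye library. The mean there was 2.06 times that of wild type (1501, 1065 and 1060 TPM in wild type, 2348, 2709 and 2398 in mutants), and the difference between whole eyes and tissues was not tested.

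On TPM, SPART (ENSDARG00000103457) was higher in every bmp4 larval library than in each control, by 1.13 times in the mean (29.9, 30.4 and 29.3 TPM against 25.6, 25.6 and 28.1). By edgeR on counts it was not called, with 48.8 ± 2.23 CPM against 45.5 ± 6.55 in controls (log2 0.10, SE 0.12, adjusted p = 0.999). In shh larvae its TPM was lower in every library, at 0.602 times the control mean (20.4, 20.5 and 8.34 TPM against 25.3, 24.5 and 31.8). That fall was not called either, with 31.4 ± 0.807 CPM against 41.6 ± 8.98 (log2 −0.41, SE 0.20, edgeR adjusted p = 0.9). The value of 8.34 TPM came from shh replicate 13, which had the highest larval crystallin sum (295244 TPM), and it lowers the ratio of TPM means. The difference between the lines was not tested.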

How the results depend on the processing

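The number of members was 163 with a ratio above 2, 66 with a ratio above 5, 28 with a mean of at least 5 TPM, 123 with at least 0.5 TPM and 19 with all 3 tissues required. It was 82 on the deposited FPKM, 80 of them shared, and 85 on TMM-scaled CPM, 74 of them shared. Leaving out a library gave 99 to 117, where the ratio could only loosen. In whole eyes DESeq2 called 31 members lower and the fit of all 24 libraries 35, against 18, and leaving out a library gave 0 to 26. Over all genes DESeq2 called 560 lower and 474 higher, against 120 and 80. Other scaling gave 18, no filter 19 and limma 19 (16 shared). Whole-eye libraries of the same number had correlations of 0.232, 0.173 and 0.0164 and were not taken as pairs, and the replicate block called 16 members lower, 14 of them shared. In bmp4 larvae the replicate block called 4 members against 0, and in shh larvae 0. Between controls DESeq2 called 2 against 0. The cause of these differences was not tested. No paired analysis of the controls was made, since their fish are of separate lines. Leaving out the crystallins, chosen after seeing the data, left 85 members and 18 calls. Among 336 alternatives of 28 named members in whole eyes, 284 kept direction and side of the threshold, 38 lost the call, 13 gained one and 1 reversed, crygm4, whose log2 change of 0.12 was −0.09 to 0.31 when 1 library was left out and −0.09 without mutant replicate 2. Levels near 1 TPM rest on few reads, which limits ratios of single members.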
